A study of Nicotiana tabacum with 8 samples.

Results

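Leaves of the tobacco (Nicotiana tabacum) cultivars K326 and CB-1 were compared after both had been kept at 4 °C for 1 day. Of the 8 libraries of the series, 4 carry this comparison: KT1 and KT2 from cold-treated K326, and CT1 and CT2 from cold-treated CB-1. The other 4 are controls, KC1 and KC2 from K326 and CC1 and CC2 from CB-1, taken from plants that stayed at their normal growth temperature. All plants were at the 6-leaf stage, the labels name no transgene, each library pooled leaves of several plants, and the labels give no more than the replicate number about how the 2 libraries of a group were separated. P-values therefore measure the spread between these libraries, which may be in part technical. The study set these cultivars side by side because their cold tolerance differs, and the question here is how their transcripts differ once both are cold. The control libraries were read to tell differences that stood before the cold from those that appeared in it.

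The features are unigenes, that is, transcript clusters from a de novo assembly of the reads, and the values are log2(value + 1) of the abundance estimated for each unigene. A difference of 1 is thus a 2-fold difference in value + 1, which makes the change of a low unigene look smaller. The unigenes compared were those at a value of 1 or more in 2 or more of the 4 cold libraries, 23282 of the 135146 in the table. At the edge of this filter, 76 unigenes had a second highest cold value exactly at the limit. One just inside was c107067_g1 (log2 values of 1.0 and 0.65 in KT1 and KT2, 2.22 and 0.99 in CT1 and CT2), and one just outside was c78772_g1 (0.56 and 0.55 in KT1 and KT2, 0.999 in both CT1 and CT2). The files hold neither read counts per unigene nor unigene lengths, and the sources used here do not name the scaling. The depth behind each value is therefore unknown, and no levels were compared between unigenes. An exact 0 may be an absent transcript or a failed estimate, and where a cultivar was listed at 0 in both cold libraries each value is given without a fold change.

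Plants chilled above freezing must keep membranes fluid and proteins folded. Calcium entering the cytosol is among the first signals, and DREB1 factors (also called CBFs) of the AP2/ERF family then switch on cold-regulated genes, while DREB2 factors are better known from drought and heat. Heat shock proteins are chaperones: HSP70 and HSP90 refold or hold client proteins with ATP, small heat shock proteins bind unfolded proteins without ATP, ClpB pulls proteins out of aggregates, and DnaJ proteins and HOP hand clients to HSP70 and HSP90. Tobacco is a plant of warm climates, and how well its cultivars bear chilling varies.

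Before the results, the libraries themselves. Over the unigenes compared, not independent of each other as replicates would be, Pearson's correlation was 0.923 between KT1 and KT2, 0.910 between CT1 and CT2, and between 0.833 and 0.897 across the cultivars in the cold. Replicates differed by a median of 0.32 in K326 cold and 0.36 in CB-1 cold, in absolute terms. The control libraries did not group by cultivar: KC1 correlated more with the library labelled CC2 (0.969) and KC2 more with the library labelled CC1 (0.976) than KC1 with KC2 (0.941) or CC1 with CC2 (0.958). Differences between the cold libraries take no level from the controls, but the spread against which they were tested is shared over all 8 libraries and so includes them. CT1 was the cold library with the most unigenes above 0 (51331, against 43354 to 46552 in the other 3). By the study's totals of high-quality reads, CT1 was also the shallowest of the cold libraries and CT2 the deepest. Whether depth had a part in the values where CT1 lay far below CT2 was not tested. Standard leaf markers were not among the named unigenes, and the tissue on the labels was not checked here.

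Names come from the study's own annotation, of which 1999 unigenes were at hand, ordered by how much the response to cold differed between the labelled cultivars (all by at least 1.58 on the log2 scale). A protein function was given for 360 of them, and 316 of these passed the filter. Named unigenes were therefore picked on values of these same libraries, and their share of differences is not independent evidence. The unigene identifiers could not be matched to genes of a reference genome, so no genome positions are given. A few of the unigenes followed below can be tied to a sequence by the designed qPCR primers of the study, shown here, 5′ to 3′, because they identify the transcripts behind the DREB and NFYB7 values.
NFYB7 (c70415_g4) forward: gcccttcaccattttccgtt
NFYB7 (c70415_g4) reverse: ggcttctctgattcgagcac
DREB1F (c64765_g1) forward: cagaagagaacgcggcaaat
DREB1F (c64765_g1) reverse: catcccagctgaaacaaccc
DREB2A (c73886_g1) forward: gttgaagtcttcctgccgtc
DREB2A (c73886_g1) reverse: gactccactggatacctcgg
ERF109 (c79891_g2) forward: ccaagaagggcagctagagt
ERF109 (c79891_g2) reverse: agctgtgttagttccctgct

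In the cold, most heat shock and chaperone unigenes of the annotation at hand had higher values in K326 than in CB-1. That annotation held only unigenes whose response to cold differed between the labelled cultivars, so chaperones that did not differ could not appear. A set that includes annexin ANN4, the coactivator MBF1A and a glycine-rich protein had lower values in K326. Of the 23282 unigenes, 257 were past the threshold as higher in K326 cold than in CB-1 cold (1.10%) and 185 as lower (0.795%), 442 in all (1.90%), at a Benjamini-Hochberg adjusted p under 0.05 and a difference over 1 (limma, 1 fit over the 4 groups). Their median differences were 1.76 and −1.63, or 1.66 over 140 and −1.59 over 87 of them when those listed at 0 in both cold libraries of 1 cultivar are left aside, beside a median of −0.02 over all unigenes compared. In each of the 442 both libraries of K326 lay on one side of both libraries of CB-1, an arrangement that 10014 of all unigenes compared showed (43.0%): 5078 with K326 above (21.8%) and 4936 with K326 below (21.2%). At an unadjusted p under 0.05 there were 4038 unigenes, 2154 higher (9.25%) and 1884 lower (8.09%) in K326 cold.

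**Figure D1:**
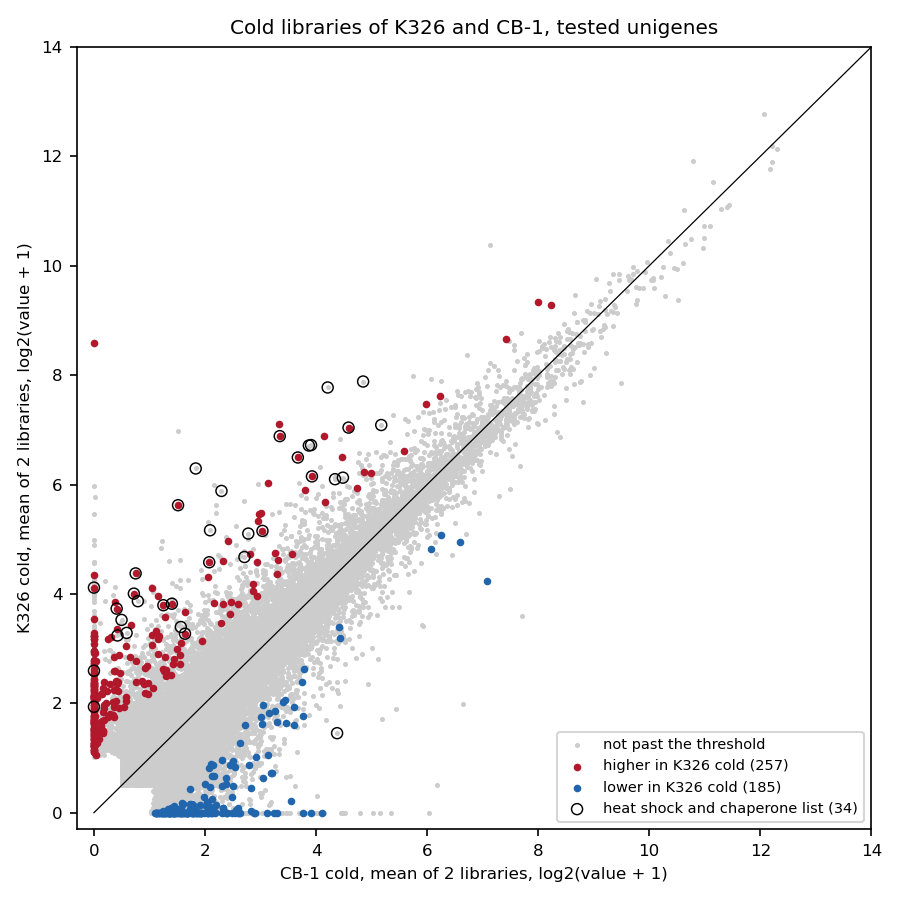
Mean log2(value + 1) over KT1 and KT2 (vertical axis) against the mean over CT1 and CT2 (horizontal axis) for each of the 23282 unigenes compared. The line marks equal values, red and blue points are the 257 unigenes higher and the 185 lower in K326 cold past the threshold, and circles mark the 34 heat shock and chaperone unigenes, of which 33 lie above the line.

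These calls depend on which libraries enter the fit. Without KC1, KC2, CC1 or CC2 in turn, limma called 0 unigenes, with 3858, 3856, 3548 and 3546 at an unadjusted p under 0.05, while without CT2 it called 1223. The balance of directions moved as well: 210 were higher and 241 lower in K326 cold without CT1, 574 higher and 649 lower without CT2, 22 higher and 5 lower with a filter at a value of 5, and 114 higher and 32 lower with a pseudocount of 5. With the cold libraries alone it called 84 (0.361%), of which 16 were among the 442 (3.6% of the 442 and 19.0% of the 84). All 4 control libraries were at 0 for 270 of the 442, so that these unigenes gained residual degrees of freedom but no spread from the controls. Among the 14401 unigenes at 1 or more in all controls, tested alone, limma called 0 with 1725 at an unadjusted p under 0.05, a check chosen after seeing the data. Each of the 442 had an unadjusted p of at most 0.0165 with the cold libraries alone, and with 2 libraries against 2 no exact permutation test of 1 unigene can go below p = 0.333. The values below therefore carry the description, and a call is a statement about this 1 fit.

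Most of the called unigenes were low or unseen in every control library, a class that this fit favours. Controls without signal add residual degrees of freedom but no spread, and the filter read the cold libraries only. By their controls, 187 of the higher and 160 of the lower ones were off in all 4 (every log2 value under 1), where 23.6% of all unigenes compared were off. Another 50 higher and 17 lower were even (all controls at 1 or more and within 1 of each other). Split into 2 high and 2 low controls were 3 and 3, and 17 and 5 fitted none of these descriptions. With the cold libraries alone, 7 higher and 1 lower of the 84 calls were off, and 39 and 29 were split. Among all unigenes without overlap and over 1 apart in the cold, 653 higher and 698 lower were off. Of those, 267 and 165 were even, 220 and 185 split, and 472 and 376 none of these. The share of calls that were off is therefore no measure of induction by cold. Of the 442 calls, 170 of the higher ones were raised by more than 1 against the mean of all controls in K326 cold only. Another 39 were raised in both cultivars, and 8 were raised in K326 cold while lowered in CB-1 cold. A further 21 were lowered in CB-1 cold only, 11 were lowered in both, and 8 moved by no more than 1 in either. Of the unigenes lower in K326, 153 were raised in CB-1 cold only, 18 in both, 8 were lowered in K326 cold only, 4 were lowered in both, and 2 moved in neither.

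The heat shock and chaperone unigenes stood together. Of 34 in the annotation, all of which passed the filter, 14 were past the threshold as higher in K326 cold (limma, BH-adjusted over the whole table) and 0 as lower, 41.2% beside the 1.10% called higher among all unigenes. Of the 316 annotated unigenes, 42 were called higher (13.3%) and 12 lower (3.80%), and 188 (59.5%) had both K326 cold libraries above those of CB-1, against 104 below (32.9%). Lists below that came from this annotation are read against these shares. The shares include the heat shock list itself, with 14 of the 42 called higher and 33 of the 188 above. The DREB, COR413, qPCR and leading transcription factor unigenes were named by the study apart from this annotation and are read against all unigenes compared. Both K326 libraries lay above both CB-1 libraries in 33 of the 34, and an unadjusted p under 0.05 was reached by 32 with K326 higher and 1 with K326 lower. The median difference was 2.76 (2.81 over the 31 with no cultivar listed at 0), beside 1.5 over the annotated unigenes and −0.02 over all. They came from 23 assembly components, and members of 1 component may share sequence, so that reads may have been split between them. CT1 was below CT2 in 27 of the 34, where it was below in 54.3% of all unigenes. Without KT1 the call count of the list was 3, without KT2 6, without CT1 8 and without CT2 22, without any 1 of the controls 0, and with the cold libraries alone 3.

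Relative to the controls, the list was low in CB-1 cold more than high in K326 cold. In 23 of the 34 both CB-1 cold libraries lay below all 4 controls, an arrangement found in 29.1% of all unigenes compared. In K326 cold both libraries lay above all controls in 13 and below all controls in 9, against 35.9% and 30.5% of all unigenes. These shares are of the whole table, while the list came from unigenes picked by their difference in cold response. They are therefore not a like background, and the same shares over the annotated unigenes are not given here. The median over the list of the cold mean minus the control mean was 0.42 in K326 and −2.29 in CB-1. By class, 12 were lowered in CB-1 cold only, 8 in both cultivars and 1 in K326 cold only, 8 were raised in K326 cold only, and 5 were raised in K326 cold and lowered in CB-1 cold.

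**Figure D2:**
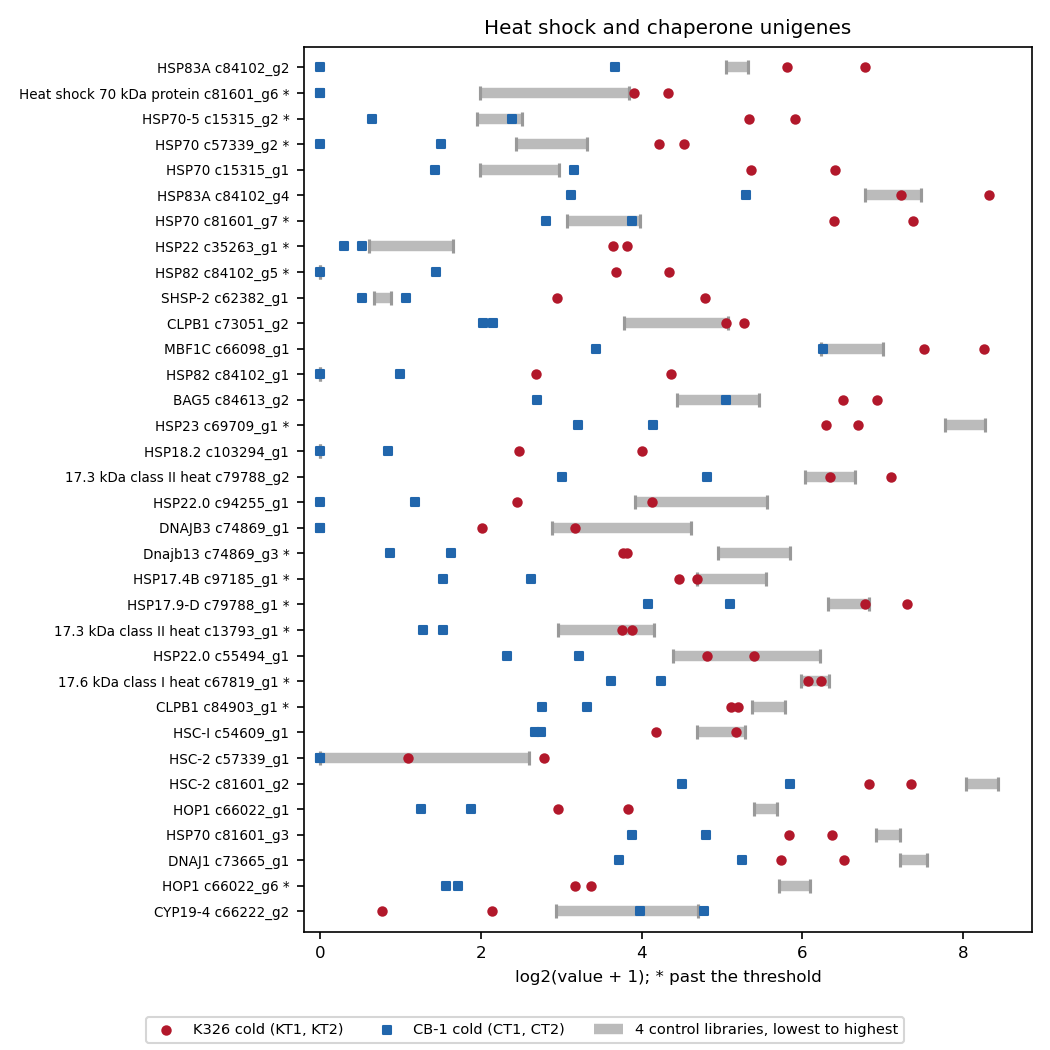
Log2(value + 1) of the 34 heat shock and chaperone unigenes (rows, ordered by difference) in KT1 and KT2 (red circles) and in CT1 and CT2 (blue squares), with the lowest to highest of the 4 controls as a grey bar. Red lies right of blue in every row but the last, CYP19-4, and asterisks mark the 14 past the threshold.

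The HSP70 family, the central ATP-driven refolding chaperones, gave 9 unigenes from 4 components, 4 of them past the threshold and all 9 with K326 above CB-1 (median difference 3.54, range 1.76 to 4.12). HSP70-5 (c15315_g2) had log2 values of 5.91 and 5.33 in KT1 and KT2, against 0.64 and 2.39 in CT1 and CT2 and 1.95 to 2.52 in the controls. Both K326 libraries were above every control, while CT1 was below every control and CT2 within their range. The difference of 4.11 (standard error 0.56, 17.2-fold in value + 1) had a BH-adjusted p of 0.0349 from limma, from 0.00668 to 0.486 over the alternatives. HSP70 (c81601_g7) had 7.38 and 6.39 in K326 cold, against 2.82 and 3.88 in CB-1 cold and 3.07 to 3.97 in the controls (difference 3.54, standard error 0.46, BH-adjusted p = 0.0324, limma). Its neighbour in the assembly, the HSP70 fragment c81601_g6, had 4.33 and 3.91 in K326 cold and was listed at 0 in both CB-1 cold libraries, with 1.99 to 3.85 in the controls (BH-adjusted p = 0.0203, limma). The fragment was detected in every control and in K326 cold, and unseen in CB-1 cold alone. The cognate HSP70 c57339_g2, by name a form made without stress, had 4.53 and 4.22 in K326 cold, against 0 and 1.5 in CB-1 cold and 2.43 to 3.33 in the controls (BH-adjusted p = 0.0406, limma).

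The HSP90 family was represented by 4 unigenes of a single component, c84102. The largest difference of the whole list was that of HSP83A (c84102_g2), 4.46, which did not pass the threshold (standard error 1.09, BH-adjusted p = 0.107, limma). Its values were 6.78 and 5.81 in K326 cold, against 0 and 3.67 in CB-1 cold and 5.05 to 5.32 in the controls, so that the 2 libraries of CB-1 differed by nearly as much as the cultivars. HSP82 (c84102_g5) passed it, with 4.34 and 3.68 in K326 cold, 0 and 1.44 in CB-1 cold and 0 in every control (difference 3.29, standard error 0.48, BH-adjusted p = 0.0421, limma).

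Small heat shock proteins, which hold unfolded proteins until ATP-driven chaperones take over, were represented by 11 unigenes from 10 components, 6 of them past the threshold and all with K326 above CB-1 (median difference 2.70, range 2.22 to 3.32). The chloroplast protein HSP23 (c69709_g1) was lower in the cold of both cultivars than in any control: 6.70 and 6.29 in K326 cold, 3.21 and 4.14 in CB-1 cold, and 7.78 to 8.27 in the controls. The cultivars nevertheless did not overlap, and differed by 2.82 (standard error 0.35, BH-adjusted p = 0.0300, limma). A second chloroplast member, HSP22 (c35263_g1), had 3.81 and 3.65 in K326 cold, against 0.52 and 0.30 in CB-1 cold and 0.60 to 1.66 in the controls (BH-adjusted p = 0.0278, limma). Here K326 cold was above every control. CB-1 cold was below every control, but CT1 was only just under the lowest of them, and these values are near the floor.

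The numbered classes gave a further arrangement, with K326 cold near the controls and CB-1 cold under them. The class I protein c67819_g1 had 6.23 and 6.07 in K326 cold, 3.62 and 4.24 in CB-1 cold and 5.98 to 6.34 in the controls (difference 2.22, standard error 0.24, BH-adjusted p = 0.0237, limma). HSP17.9-D (c79788_g1), of class II, had 7.30 and 6.78 in K326 cold, against 4.08 and 5.09 in CB-1 cold and 6.32 to 6.83 in the controls (BH-adjusted p = 0.0409, limma). The class II protein c13793_g1 and the class III protein HSP17.4B (c97185_g1) were also past the threshold, with differences of 2.42 and 2.50. For the first, K326 cold gave 3.88 and 3.76 and CB-1 cold 1.28 and 1.52. For HSP17.4B, K326 cold gave 4.46 and 4.69 and CB-1 cold 1.53 and 2.62, with 4.69 to 5.55 in the controls.

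Chaperones that work with the others followed. ClpB1 (c84903_g1), the disaggregase, had 5.11 and 5.20 in K326 cold, against 2.76 and 3.32 in CB-1 cold and 5.38 to 5.78 in the controls, a difference of 2.12 (standard error 0.23, 4.34-fold in value + 1, BH-adjusted p = 0.0237, limma). HOP1 (c66022_g6), which links HSP70 to HSP90, had 3.17 and 3.37 in K326 cold, 1.72 and 1.56 in CB-1 cold and 5.71 to 6.10 in the controls (difference 1.63, standard error 0.18, BH-adjusted p = 0.0248, limma). HOP1 was thus far below its control level in both cultivars and further below in CB-1. The DnaJ homolog Dnajb13 (c74869_g3) showed the same order, with 3.82 and 3.76 in K326 cold, 0.87 and 1.63 in CB-1 cold and 4.94 to 5.85 in the controls (BH-adjusted p = 0.0456, limma). Some members of the list are not chaperones in the strict sense and were singled out after their values were seen. MBF1C (c66098_g1), a transcriptional coactivator known from heat responses in Arabidopsis, had 8.26 and 7.51 in K326 cold, against 3.44 and 6.26 in CB-1 cold and 6.23 to 7.0 in the controls, and did not pass (BH-adjusted p = 0.152, limma). CYP19-4 (c66222_g2), a cyclophilin that isomerises proline bonds, was the only member with K326 below CB-1: 0.77 and 2.14 in K326 cold, 3.98 and 4.78 in CB-1 cold and 2.94 to 4.71 in the controls (BH-adjusted p = 0.129, limma).

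Among the DREB unigenes no difference passed the threshold. Of 17, 13 passed the filter, and 0 of the 13 were past the threshold, with 4 at an unadjusted p under 0.05, all higher in K326 (limma; lowest BH-adjusted p = 0.110). In 7 of the 13 both K326 cold libraries lay above both of CB-1, and in 0 below, beside 21.8% and 21.2% of all unigenes compared. The median difference was 1.29, beside −0.02 over all. In 7 of the 13 every control was listed at 0. KT1 was below KT2 in 11 of the 13, and CT1 below CT2 in 10.

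DREB1F (c64765_g1), of the DREB1 branch, had 5.38 and 6.0 in K326 cold, against 1.02 and 4.40 in CB-1 cold and 0 in every control. All the cold libraries were thus above all controls, and the libraries of CB-1 differed by more than the cultivars did (difference 2.98, standard error 0.99, BH-adjusted p = 0.198, limma). A second DREB1F unigene (c67621_g1) had 2.48 and 4.52 in K326 cold, and 1.01 and 1.94 in CB-1 cold (BH-adjusted p = 0.196, limma). DREB1B (c79563_g2) and the 2 DREB1D unigenes (c79563_g1, c80221_g1) had K326 above CB-1 by 1.90, 3.43 and 1.29, with BH-adjusted p-values from limma of 0.533, 0.524 and 0.441. Each of these 3 was at 0 in the control library KC2 and well above it in KC1.

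In the DREB2 branch the replicates lay closer. DREB2A (c73886_g1) had 4.35 and 4.16 in K326 cold, against 1.98 and 3.27 in CB-1 cold (difference 1.63, standard error 0.40, BH-adjusted p = 0.110, limma). The DREB2H unigenes c71056_g1 and c71056_g2, of 1 component, differed by 1.82 and 1.51, with BH-adjusted p-values from limma of 0.122 and 0.121. All 3 were at 0 in every control. DREB members that overlapped between the cultivars included DREB2C (c74172_g1, named after its values were seen), with 2.93 and 3.33 in K326 cold and 2.61 and 3.32 in CB-1 cold.

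**Figure D3:**
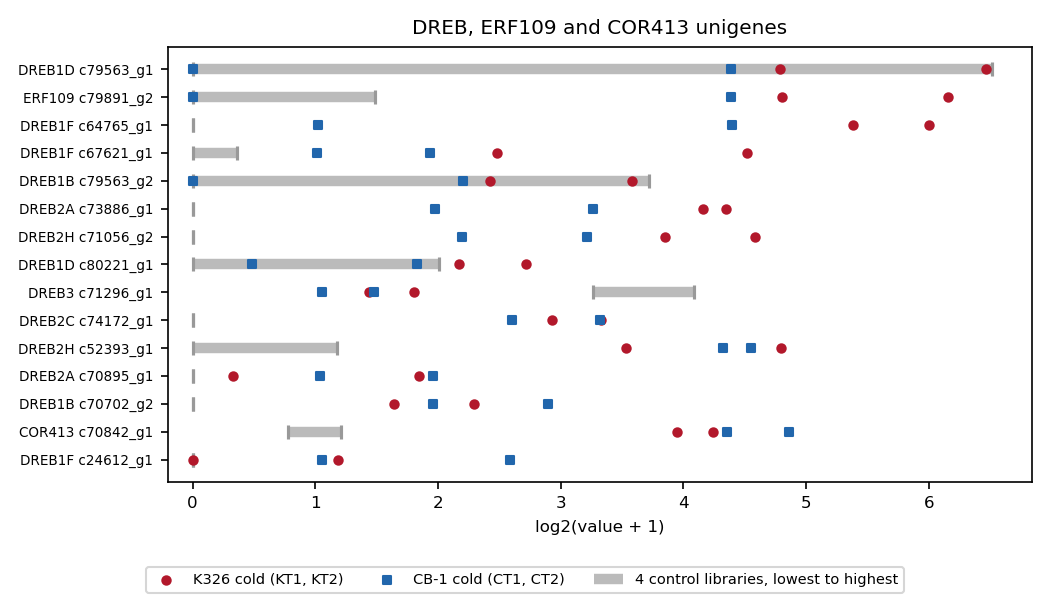
Log2(value + 1) of the 13 DREB unigenes that passed the filter, with ERF109 and COR413, in KT1 and KT2 (red circles), in CT1 and CT2 (blue squares) and over the 4 controls (grey bar or tick, lowest to highest). In 7 DREB rows both red circles lie right of both blue squares, and in none were the values past the threshold.

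The wider AP2/ERF family gave 17 unigenes, all above the filter, of which 1 was past the threshold as higher and 0 as lower, with 12 having K326 above and 1 below (median difference 1.76, beside 1.5 over the annotated unigenes, of which 13.3% were called higher). The called one was ERF026 (c77752_g3), with 2.49 and 2.12 in K326 cold and 0 in both CB-1 cold libraries and every control (BH-adjusted p = 0.0210, limma). ERF109 (c79891_g2), known in Arabidopsis as a factor induced by redox stress and jasmonate, had 4.80 and 6.15 in K326 cold, against 0 and 4.39 in CB-1 cold and 0 to 1.49 in the controls. It did not overlap but did not pass (difference 3.28, standard error 1.41, BH-adjusted p = 0.307, limma). GAI (c74180_g1), a DELLA repressor of gibberellin responses, had 2.57 in both libraries of K326 cold, and 0 and 1.91 in CB-1 cold (BH-adjusted p = 0.228, limma). In both ERF109 and GAI, CT1 was at 0 and CT2 lay closer to the K326 libraries than to CT1.

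The COR413 unigenes, thylakoid or plasma membrane proteins that cold is known to induce, did not separate the cultivars past the threshold. COR413 (c70842_g1) had 3.95 and 4.24 in K326 cold, against 4.86 and 4.36 in CB-1 cold and 0.78 to 1.21 in the controls. The difference of −0.51 (standard error 0.24, BH-adjusted p = 0.350, limma) was about as large as the spread between the CB-1 libraries. Of the 3 unigenes 0 were past the threshold, with 0 at an unadjusted p under 0.05, and the median difference was −0.17. In 2 both K326 cold libraries lay below both of CB-1, and in 0 above, beside 21.2% and 21.8% of all unigenes compared. COR413I (c81086_g1) had 1.23 and 1.34 in K326 cold and 1.47 and 1.43 in CB-1 cold, with 1.92 to 2.21 in the controls. It was thus lower in the cold of both cultivars than in any control. Among the 28 unigenes for which the study designed qPCR primers 0 were past the threshold (median difference 0.50). At an unadjusted p under 0.05 (limma) 6 were higher and 1 lower, beside 9.25% and 8.09% of all unigenes compared. Both K326 cold libraries lay above both of CB-1 in 12 and below in 4, beside 21.8% and 21.2%. Among the 28 of 30 transcription factors of its leading list that passed the filter, 1 was past the threshold as higher and 0 as lower, beside 1.10% and 0.795% (median 0.75). K326 lay above in 18 of these and below in 1. That list was picked by change in the cold in these same libraries, and both lists share members with the DREB unigenes.

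The 1 factor of that leading list past the threshold was HBP-1b (c40491_g1), a bZIP factor of the group that binds histone promoters in wheat. Its values were 5.51 and 5.40 in K326 cold, against 2.69 and 3.26 in CB-1 cold and 0 to 0.07 in the controls, a difference of 2.48 (standard error 0.23, 5.59-fold in value + 1, BH-adjusted p = 0.0210, limma). Both cultivars were far above all controls, with K326 above CB-1 by several times the spread between replicates. WRKY53 (c60230_g2), a WRKY factor linked to leaf senescence in Arabidopsis, showed the same order at lower values, 3.35 and 3.13 in K326 cold, 1.48 and 0.86 in CB-1 cold and 0 in every control (difference 2.07, standard error 0.25, BH-adjusted p = 0.0299, limma).

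Of the other transcription regulators 17 of 19 passed the filter, 2 were past the threshold as higher in K326 and 2 as lower, and 9 had K326 above and 8 below (median difference 1.25, beside 59.5% above, 32.9% below and 1.5 over the annotated unigenes). The 2 lower ones were MBF1A and PERIANTHIA. MBF1A (c61936_g1), a coactivator that bridges bZIP factors and the general transcription machinery, was listed at 0 in both K326 cold libraries and had 3.81 and 3.73 in CB-1 cold (BH-adjusted p = 0.0432, limma). It was at 0 in KC1 and CC2 too, and had 1.29 in KC2 and 1.40 in CC1. PERIANTHIA (PAN, c73917_g1), a bZIP factor known for setting floral organ number in Arabidopsis, was also at 0 in both K326 cold libraries, with 1.53 and 1.79 in CB-1 cold and 1.74 to 1.98 in the controls (BH-adjusted p = 0.0257, limma). PAN thus stayed near its control level in CB-1 cold and was unseen in K326 cold.

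Calcium signalling had calls in both directions, 2 higher and 1 lower among the 6 of 9 unigenes that passed the filter. Of the annotated unigenes, 13.3% were called higher and 3.80% lower, and a list this small cannot be told from those shares. Annexin D4 (ANN4, c73521_g1), a membrane-binding protein that responds to calcium, had 4.24 in both libraries of K326 cold, against 6.72 and 7.43 in CB-1 cold and 2.58 to 3.50 in the controls. Both cultivars were above all controls, CB-1 by more, and the difference of −2.83 (standard error 0.29, 7.12-fold in value + 1) had a BH-adjusted p of 0.0237 from limma, from 0.00738 to 0.370 over the alternatives. PBP1 (c99063_g1), a small calcium-binding protein, had 2.55 and 2.23 in K326 cold, 0 and 0.35 in CB-1 cold and 0 in every control (BH-adjusted p = 0.0237, limma). A unigene resembling the calcium-binding pollen allergen Ole e 8 (c67871_g1) had the highest K326 values among the called ones that were at 0 in CB-1, 8.81 and 8.38 in K326 cold and 0 in both CB-1 cold libraries. In the controls it had 4.26 in KC1 and 2.77 in CC2 and was at 0 in KC2 and CC1, and its BH-adjusted p was 0.05 as rounded (limma), at the edge of the threshold.

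Among proline, GABA, trehalose and starch enzymes both K326 cold libraries lay above both of CB-1 in 8 of 9 unigenes and below in 1, and 1 was past the threshold as higher and 0 as lower (median difference 2.59, beside 1.5 over the annotated unigenes). Of these, 59.5% had K326 above and 13.3% were called higher, and 1 call in 9 cannot be told from that share. The 9 came from 6 assembly components. The called one was a trehalose-phosphate phosphatase, TPPI (c67710_g2), an enzyme of the last step to trehalose. It had 2.76 and 2.43 in K326 cold and 0 in both CB-1 cold libraries (BH-adjusted p = 0.0426, limma). In the controls it had 0.90 in KC1, 0.74 in CC2 and 0 in KC2 and CC1, a low split that crosses the labels. Proline dehydrogenase 2 (POX2, c67003_g5), the first step of proline breakdown, had 3.68 and 2.29 in K326 cold and was listed at 0 in both CB-1 cold libraries (BH-adjusted p = 0.0507, limma). Of the peroxidases and redox enzymes 11 of 13 passed the filter, and 3 were past the threshold as higher and 0 as lower. Those 3 had K326 above CB-1 without overlap and 3 others had it below (median difference −0.42). The 3 called were all glutathione S-transferases, which conjugate glutathione to reactive compounds: c58688_g2, c58688_g3 (GST3) and c26439_g1, each listed at 0 in both CB-1 cold libraries. Of these, c58688_g2 and GST3 are of 1 assembly component, so reads may have been split between them. In K326 cold c58688_g2 had 3.28 and 3.07, GST3 2.78 and 3.13, and c26439_g1 2.63 and 1.65. None of the peroxidases of that list was past the threshold.

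Of the cuticle and lipid transfer unigenes 13 of 14 passed the filter, 2 were past the threshold as higher in K326 cold and 0 as lower. Both K326 cold libraries lay above both of CB-1 in 3 and below in 8 (median difference −1.36), beside 59.5% and 32.9% of the annotated unigenes. The GDSL esterase/lipase At1g28650 (c82304_g1) had 6.43 and 5.63 in K326 cold, against 2.67 and 3.60 in CB-1 cold and 0 in every control (difference 2.90, standard error 0.38, BH-adjusted p = 0.0329, limma). ABCG32 (c68383_g1), a transporter needed for cuticle formation in Arabidopsis, had 6.84 and 6.17 in K326 cold, against 4.44 and 4.50 in CB-1 cold and 1.02 to 1.78 in the controls (BH-adjusted p = 0.0447, limma). The wax gene CER3 (c50211_g1) had 0.33 and 0 in K326 cold, against 3.96 and 1.39 in CB-1 cold, with the CB-1 values far apart from each other (BH-adjusted p = 0.191, limma).

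Of the ubiquitin ligase unigenes 19 of 21 passed the filter, and 0 were past the threshold as higher and 2 as lower. In 14 K326 lay above and in 5 below (median difference 1.73), beside 59.5%, 32.9% and 1.5 over the annotated unigenes. SKIP19 (c80933_g4), an F-box protein that selects targets for ubiquitin ligases, was listed at 0 in both K326 cold libraries and had 2.50 and 2.3 in CB-1 cold, with 0 to 0.37 in the controls (BH-adjusted p = 0.0210, limma). SKIP14 (c83094_g1) had 0.97 and 0.91 in K326 cold, 2.67 and 2.36 in CB-1 cold and 0.39 to 0.86 in the controls (difference −1.57, standard error 0.25, BH-adjusted p = 0.0464, limma). Both F-box unigenes were above all controls in CB-1 cold.

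Other named unigenes past the threshold belonged to no list. RBL14 (c69282_g1), annotated as a rhomboid-like protein of unknown function, had 4.31 and 3.91 in K326 cold, against 0.61 and 1.47 in CB-1 cold and 2.39 to 2.62 in the controls (difference 3.07, standard error 0.31, BH-adjusted p = 0.0237, limma). A germacrene B synthase (SSTLH1, c86337_g6), an enzyme of sesquiterpene synthesis, had 3.19 and 3.18 in K326 cold, 0 and 0.51 in CB-1 cold and 2.31 to 2.90 in the controls (difference 2.93, standard error 0.25, BH-adjusted p = 0.0210, limma). In both, K326 cold was above and CB-1 cold below every control.

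Among those lower in K326, a glycine-rich protein (GRP, c103804_g1) was listed at 0 in both K326 cold libraries and had 4.23 and 3.58 in CB-1 cold (BH-adjusted p = 0.0237, limma). In the controls it had 0.75 in KC2, 0.88 in CC1 and 0 in KC1 and CC2, a low split that crosses the labels. A pair of unigenes named for the mitochondrial pentatricopeptide repeat protein At1g26460, of a family that processes organelle RNA, were both lower in K326. For c81812_g1 the values were 1.62 and 1.68 in K326 cold, 3.25 and 3.69 in CB-1 cold and 1.91 to 2.16 in the controls, so K326 cold was under and CB-1 cold over every control (difference −1.82, standard error 0.21, BH-adjusted p = 0.0248, limma). The second, c31375_g1, was seen in CB-1 cold alone, at 2.36 and 2.02. Since the 2 share an annotation, reads may have been divided between them.

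Of the transposon-related unigenes 12 of 15 passed the filter, and 0 were past the threshold as higher and 2 as lower. In 7 K326 lay above and in 5 below (median difference 1.62), beside 59.5%, 32.9% and 1.5 over the annotated unigenes. The copia-type polyprotein c1817_g2 was seen in CB-1 cold alone, at 1.90 and 1.68, and the TX1-type c106991_g1 had 0.41 and 0.52 in K326 cold, against 2.33 and 1.86 in CB-1 cold and 0 in every control (BH-adjusted p = 0.0360, limma). Such sequences occur in many near-identical copies, and the assignment of their reads is uncertain. A unigene for a ribonuclease H-like protein (c28482_g1) had 0.57 and 0 in K326 cold and 2.16 and 1.79 in CB-1 cold.

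**Figure D4:**
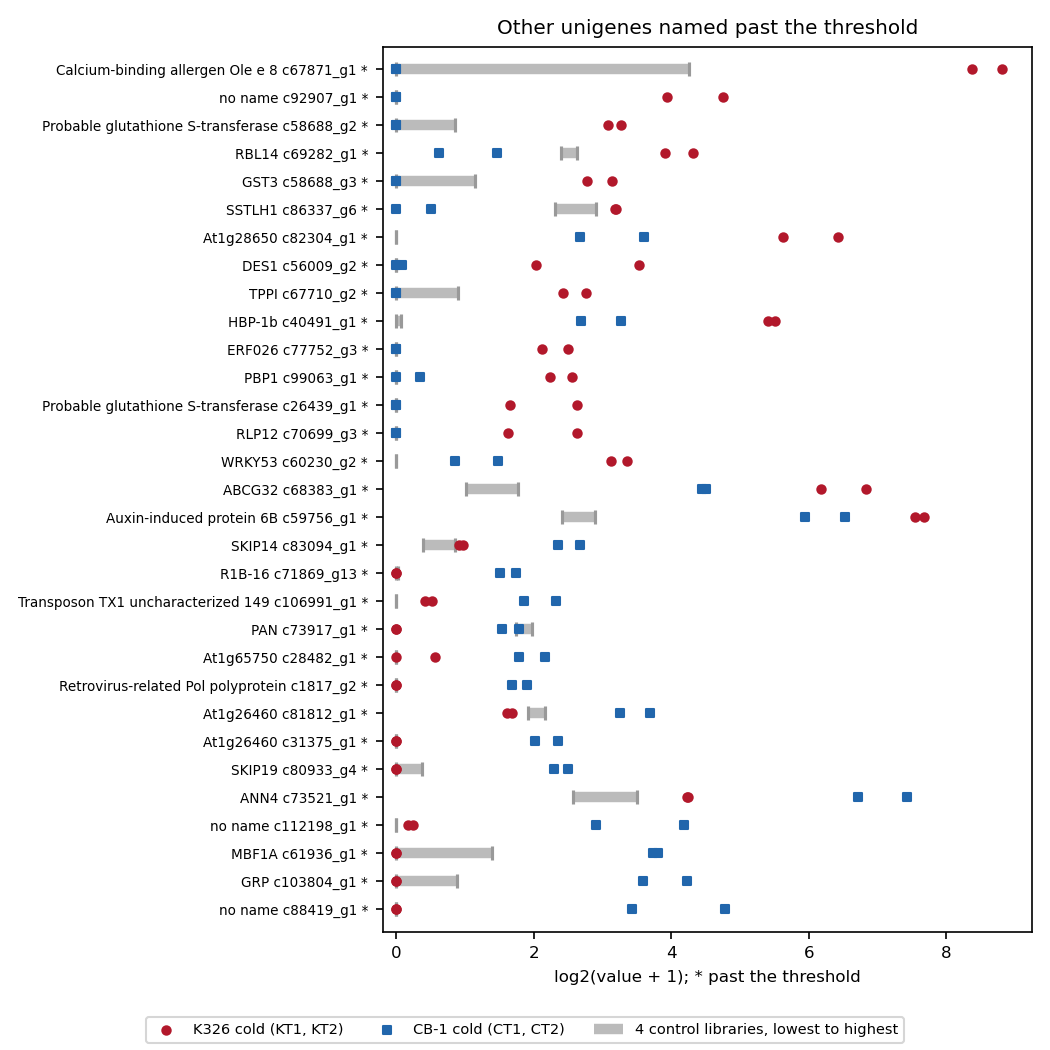
Log2(value + 1) of the named unigenes past the threshold outside the heat shock list (rows, ordered by difference) in KT1 and KT2 (red circles), in CT1 and CT2 (blue squares) and over the 4 controls (grey bar or tick, lowest to highest). Rows run from c67871_g1, at 8.81 and 8.38 in K326 cold and 0 in CB-1 cold, to c88419_g1, seen in CB-1 cold alone.

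A function was given in the annotation at hand for 54 of the 442 calls. Another 198 were in it without a function, and 190 were not among its 1999 unigenes. Among those with the widest distance, c92907_g1 had 3.94 and 4.76 in K326 cold and was at 0 in all other libraries (BH-adjusted p = 0.0203, limma), and c88419_g1 had 4.78 and 3.43 in CB-1 cold and was at 0 in all others (BH-adjusted p = 0.0237, limma). The unigene c112198_g1 had 0.24 and 0.18 in K326 cold, 4.19 and 2.91 in CB-1 cold and 0 in the controls. Both CB-1 unigenes were thus high in the cold and at 0 in every control.

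A different set of unigenes was on in one cultivar and off in the other in the cold, and split in the same way among the controls, but along pairs that cross the labels. Of all unigenes compared, 693 were split, with the 2 higher controls at least 1 above the 2 lower ones. The high pair was KC1 with CC2 in 265 unigenes and KC2 with CC1 in 270, against 25 to 59 for each of the other 4 pairs. Where KC1 and CC2 were high, both K326 cold libraries lay above both of CB-1 in 215 unigenes and below in 9. Where KC2 and CC1 were high, K326 cold lay above in 6 and below in 194. Listed at 0 in the 4 remaining libraries and at 1 or more in all 4 of the high ones were 110 unigenes with KC1, CC2 and K326 cold, and 94 with KC2, CC1 and CB-1 cold. By this pattern the library labelled CC2 resembled K326 and the library labelled KC2 resembled CB-1, and the cause was not tested.

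**Figure D5:**
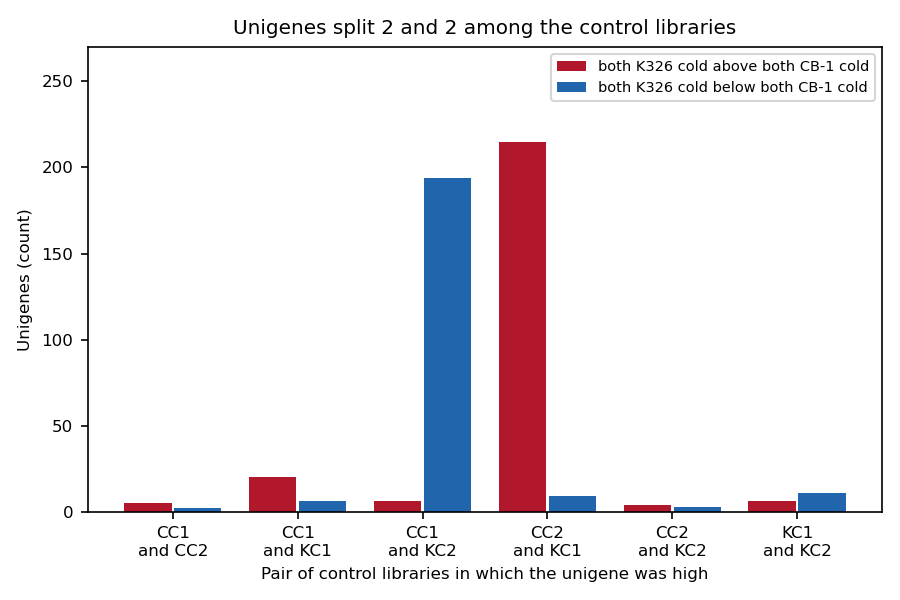
Number of unigenes split 2 and 2 among the control libraries, by the pair of controls in which they were high (horizontal axis), with KT1 and KT2 both above CT1 and CT2 (red, left) or both below (blue, right). The counts of 215 for KC1 with CC2 and 194 for KC2 with CC1 stand out from the other 4 pairs.

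The split within each labelled control group enters the pooled spread, and 3 of the 442 calls had a crossed pair of high controls. With the cold libraries alone, 68 of the 84 calls had a crossed pair, 39 of them higher in K326 cold and 29 lower. NFYB7 (c70415_g4), a subunit of the NF-Y factor that binds CCAAT boxes, was listed at 0 in both K326 cold libraries and had 4.98 and 5.09 in CB-1 cold. It had 4.50 in KC2 and 4.47 in CC1 and was at 0 in KC1 and CC2 (BH-adjusted p = 0.229 from limma, and from 0.000223 to 0.498 over the alternatives, among them 0.0398 with the cold libraries alone). ATHB-7 (c72344_g1), a homeodomain factor induced by abscisic acid and drought in Arabidopsis, was the mirror image, with 5.43 and 6.10 in K326 cold, 0.03 and 0 in CB-1 cold, 3.94 in KC1, 2.54 in CC2 and 0 in KC2 and CC1 (BH-adjusted p = 0.0987, limma).

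The 2 unigenes for the Sec61 alpha subunit, the channel through which proteins enter the endoplasmic reticulum, also followed the crossed pairs. For sec61a c72544_g1 the values were 0.96 and 0.06 in K326 cold, against 6.24 and 6.11 in CB-1 cold, with 4.75 in KC2, 4.78 in CC1 and 0 in KC1 and CC2 (BH-adjusted p = 0.211, limma). Trehalose-phosphate phosphatase TPP4 (c67710_g1) had 4.71 and 4.45 in K326 cold and 0 in both CB-1 cold libraries, with 2.15 in KC1 and 2.23 in CC2 and 0 in the other controls (BH-adjusted p = 0.0625, limma). The F-box protein SKIP23 (c30763_g1) was at 0 in K326 cold and had 3.49 and 3.58 in CB-1 cold, with 3.11 in KC2, 3.05 in CC1 and 0 in KC1 and CC2 (BH-adjusted p = 0.222, limma). In each of these unigenes the cultivar that was high in the cold lay above the high pair of controls in both its libraries.

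Compared directly, KC1 and KC2 against CC1 and CC2 gave 0 unigenes past the threshold, with 464 at an unadjusted p under 0.05 (limma, lowest BH-adjusted p = 0.942). The difference between the cold responses of the labelled cultivars likewise gave 0, with 2448 at an unadjusted p under 0.05 (lowest BH-adjusted p = 0.118, limma). Without KT1, KT2, CT1 or CT2 in turn the second count was 94, 76, 161 and 529. After an exchange of the labels of CC2 and KC2, the control comparison gave 306, the difference between the responses 1, and the comparison of the cold libraries 1323.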

How the data were processed

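Leaf RNA of 8 libraries, 2 per group, was sequenced. According to the study's methods, the authors assembled the reads into unigenes with Trinity, mapped reads with bowtie and estimated abundance with RSEM, and they deposited these values on the log2 scale as log2(value + 1), without counts. The table holds 0 per-sample columns of other samples. Annotated names were read from the study's supplement, and its columns of fold changes and mean values were not used.

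Kept were unigenes at 1 or more in 2 or more of the 4 cold libraries. A pseudocount of 1 is part of the values. One limma fit (version 3.58.1, R 4.3.3) of the 4 group means over all 8 libraries, with a variance trend, gave K326 cold minus CB-1 cold, the control difference and the difference between the responses, adjusted by the Benjamini-Hochberg method, with the threshold at an adjusted p under 0.05 and a difference over 1. Groups came from the sample titles. The replicate numbers do not pair the libraries (correlation of same-numbered deviations 0.012 between K326 cold and CB-1 cold, −0.441 between K326 control and CB-1 control and −0.061 to 0.021 for the other pairs of groups), so no block was used. Alternatives changed the pseudocount, filter, scaling, variance model, controls used and libraries. Scaling moved the median of all unigenes to between −0.04 and −0.01.

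Named are the 12 annotated unigenes per direction with the largest differences among those past the threshold whose libraries did not overlap, the 4 largest per direction of any kind, the members of 19 lists past the threshold with the 2 largest of each list, and DREB and qPCR unigenes over 1 apart without overlap. Members and lists were chosen with earlier results of these data known.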

Additional observations from a re-analysis of the deposited data

Results flagged for a closer look

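In 9 named unigenes KT1 and KT2 both moved one way from KC1 and KC2, while CT1 and CT2 both moved the other way from CC1 and CC2. In 8 of them K326 was up and CB-1 down. The difference between the responses, K326 minus CB-1 on the log2 scale, was 4.54 for HSP83A (c84102_g2), 5.32 for the HSP70 fragment c81601_g6, 3.78 for HSP70 (c57339_g2) and 3.53 for HSP22 (c35263_g1). For the other 4 it was 3.19 for RBL14 (c69282_g1), 3.17 for SSTLH1 (c86337_g6), 2.64 for the protein phosphatase 2C c74980_g2 and 2.25 for ACO3 (c74817_g1), an ethylene-forming oxidase. In KC1 and CC2, c74980_g2 had 1.88 and 2.44 and ACO3 had 2.09 and 1.70, and both were low in KC2 and CC1. Their fall from CC1 to 0 in CB-1 cold was from 0.06 and 0.13, near the floor. HSP22 had 0.60 in CC1 and 0.52 in CT1, also near the floor. In the ninth, the pentatricopeptide repeat unigene c81812_g1, K326 was down and CB-1 up, with a difference of −1.92. By the test of the difference itself none was past the threshold (limma, BH-adjusted p from 0.118 to 0.532), and the control labels behind them did not group by cultivar.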

How the results depend on the processing

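None of the 77 named differences changed sign under any of the 23 alternatives in which it was tested. Most of the alternatives altered the test, the filter or the controls, which leaves the difference between the cold means as it was. Where the cold libraries did not overlap, leaving out 1 of them could not turn the sign either. The unchanged signs are therefore little evidence of stability. The 442 calls became 146 with a pseudocount of 5, 0 with any cold value above 0 as the filter (limma, 7811 at an unadjusted p under 0.05), 27 with a filter of 5, 84 with the cold libraries alone, 1016 with the controls as 1 group, 1323 with CC2 and KC2 exchanged, 48 in an unmoderated test, 688 without the variance trend, 163 with robust moderation, 0 with the replicate block (3691 at that level), although the libraries share only a number, and 0 among unigenes on in every control. A block with the numbers of the CB-1 controls crossed, added after seeing the data, gave 0 calls in each of the 3 comparisons (limma, 4204, 566 and 2610 at an unadjusted p under 0.05). Leaving out 1 library gave 0 to 1223. The control comparison gave 306 with the exchange, and the difference between the responses gave 4 with a pseudocount of 5, 1 with the exchange and 0 to 529 with 1 library left out. Of the heat shock list, 14 calls became 0, 7, 3, 25, 27, 0 and 9 with the looser filter, the stricter filter, the cold libraries alone, the controls as 1 group, the exchange, the unmoderated test and robust moderation, 0 with either block and 0 among unigenes on in every control, and 0 to 22 with 1 library left out. This list count and the test among unigenes on in every control were added after seeing the data. The 6 split calls became 3 with a value of 2 as on and 1 with a gap of 2. Of 1695 recomputed named values, 567 lost the call, 42 gained it and 1086 kept their side. The cause was not tested. With an arm of 1 library, that library was assumed to vary like the others. The depth behind each value is unknown, low unigenes carry compressed differences, and 2 libraries a group leave the calls to the spread shared between unigenes.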

Other observations

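Of the plant defence unigenes 17 of 25 passed the filter, 11 had both K326 cold libraries above both of CB-1 and 2 below, and 1 was past the threshold as higher and 1 as lower (limma with Benjamini-Hochberg adjustment, median difference 1.44). Among the annotated unigenes 59.5% lay above and 32.9% below, 13.3% were called higher and 3.80% lower, and the median was 1.5, so the share above is near that background. The higher one was the receptor-like protein RLP12 (c70699_g3), with 2.63 and 1.63 in K326 cold and 0 in CB-1 cold and in every control. The lower one, a homolog of the late blight resistance protein R1B-16 (c71869_g13), was at 0 in K326 cold and had 1.74 and 1.51 in CB-1 cold. Hormone unigenes were divided, 5 above and 6 below among 11 (median −0.86), and the 2 past the threshold were higher in K326. These were an auxin-induced protein of the 6B type (c59756_g1), with 7.68 and 7.55 in K326 cold, 5.94 and 6.52 in CB-1 cold and 2.41 to 2.89 in the controls, and the divinyl ether synthase DES1 (c56009_g2), which makes defence oxylipins, with 3.53 and 2.03 in K326 cold, 0 and 0.08 in CB-1 cold and 0 in every control.

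In the remaining lists limma called 0 unigenes. Ethylene synthesis had 3 of 4 above the filter, 2 higher and 1 lower at an unadjusted p under 0.05. The annotation names c74817_g1 and c70755_g3 both ACO3 but describes c70755_g3 only as a homolog of the oxidase. These unigenes differed by sign, with c74817_g1 higher in K326 cold and c70755_g3 lower. For c70755_g3 the values were 0.35 and 0.49 in K326 cold and 3.49 and 2.68 in CB-1 cold. Its controls had 3.09 in KC2, 2.94 in CC1, 1.60 in KC1 and 0.87 in CC2. For c74817_g1 the controls had 2.09 in KC1, 1.70 in CC2, 0.25 in KC2 and 0.13 in CC1. Both unigenes were thus split among the controls along the crossed pairs. Unigenes of abscisic acid, dehydration and low temperature had 11 of 13 above the filter, 4 higher and 4 lower at that level (median 1.25), and phenylpropanoid and flavonoid enzymes 9 of 11, 4 higher and 2 lower (median 1.63). Secretory pathway unigenes had 8 of 9, 1 higher and 2 lower (median −0.85).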
